A study of Mus musculus with 12 samples.

Results

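The red blood cell miRNAs examined here are mmu-miR-451a, mmu-miR-144-3p, mmu-miR-144-5p and mmu-miR-486a-5p, written below without the prefix for the mouse. They were chosen by name among the rows of mature miRNAs, as a gauge of blood left in the tissue, and make up 4 of the 1374 mature miRNAs listed. All 4 passed the filter on low counts, as did 746 mature miRNAs in all. The tissue is the prefrontal cortex (PFC) of adult male C57BL/6 mice that went through a conditioned place preference (CPP) procedure, and small RNA of 18 to 30 nt was sequenced in 12 libraries. SS mice received saline only, CS mice cocaine with saline, MS mice l-methionine (MET) with saline, and MC mice MET with cocaine. By the study's methods, MET was given under the skin at 1 g/kg, 2 times a day for 10 days, while the legend of its behaviour figure gives a lower dose. Every group went through the same behavioural procedure before the tissue was taken 2 h after the last test. Each group holds 3 libraries, each of which, by the study's methods, is RNA pooled from a pair of animals, so the spread between libraries is a spread between pools. Libraries are named here by group and replicate number, as in MC 16. A step that washes blood out of the vessels is not given in the sources used here.

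Red blood cells lose their nucleus but keep a store of miRNA made while they mature. miR-451a is the dominant miRNA of these cells and is made with miR-144 from 1 transcript that the erythroid factor GATA1 switches on. miR-486 is made from a promoter within the ankyrin gene Ank1, is abundant in erythroid cells, and is also made in muscle. Neurons are not known as a main source of miR-451a or miR-144, and capillaries run through the cortex, so these miRNAs are often read as a measure of blood in brain samples. In bulk RNA, fewer cells of a type and less RNA per cell cannot be told apart.

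The sequences of 3 of the 4 members were matched by name in RefSeq (GRCm38.p6). They are shown because their base composition returns in the results. Capitals mark the seed (bases 2 to 8), the part that pairs first with a target.

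miR-451a: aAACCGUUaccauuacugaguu

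miR-144-3p: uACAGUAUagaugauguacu

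miR-144-5p: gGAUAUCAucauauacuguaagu

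The 3 seeds differ, and each was carried by 1 of the 1679 mature miRNAs of the RefSeq table. All 3 sequences are poor in G and C. The GC share was 36.4% for miR-451a, 30% for miR-144-3p and 30.4% for miR-144-5p. The mature miR-451a lies at chr11:78073186-78073207, miR-144-3p at chr11:78073047-78073066 and miR-144-5p at chr11:78073010-78073032, all on the plus strand. The mir-144 hairpin is 66 bases long and the mir-451a hairpin 72, with 99 bases between them. The miR-144 arms lie on either side of their hairpin, which Dicer cuts. miR-451a spans bases 17 to 38 of its hairpin and so runs into the loop, a precursor that is known to be cut by the Argonaute protein AGO2 and not by Dicer. The locus of mir-486a (chr8:23142555-23142682) shares 90 bases with that of mir-486b (chr8:23142573-23142662), and both lie inside Ank1 (chr8:22974836-23150501).

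Levels are given as counts per 1000000 (CPM), the count of a miRNA over the total count of its library. Totals, in units of 1000000 counts, ran from 7.77 (MC 16) to 11.1 (SS 14), and miRNAs took 56.1% to 67.9% of them. The limit that a count of 0 allows (3 counts) lay between 0.271 and 0.386 CPM. Neural miRNAs were abundant, as the tissue label asks: miR-124-3p, the neuronal miRNA, ranged from 30002 to 176336 CPM, and miR-9-3p, the lowest of the other 4 on the list, from 1581 to 6252 CPM. The level of miR-124-3p was uneven. It was at 33187 to 46349 CPM in the MC libraries, 30002 CPM in CS 8 and 35552 CPM in MS 4, and at 70274 CPM or more in the rest. Library MC 16 stood apart from the others. Its median correlation with the other libraries over 746 mature miRNAs (log2 CPM) was 0.947, against 0.975 to 0.979 for the rest. In addition, the profiles of 204 miRNA precursor families split the libraries into a set A (SS 12, CS 8 and CS 9), a set B (SS 13, SS 14, all 3 MS libraries and MC 20) and a set C (CS 10, MC 16 and MC 17), and the labels name no batch. The number of sets was fixed at 3. The sets follow the groups in part, so that they cannot be fully told apart. They also follow depth, with totals of 10.0 to 11.1 in set B and 7.77 to 8.71 in sets A and C.

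miR-451a made up nearly all of the signal, between 97.7% and 99.6% of the counts on the 4 members. In the SS libraries it was at 2205 (SS 12), 1911 (SS 13) and 1489 CPM (SS 14). In CS it was at 2341 (CS 8), 2658 (CS 9) and 2378 CPM (CS 10). The MS libraries gave 3947 (MS 3), 2668 (MS 4) and 2544 CPM (MS 23), and the MC libraries 382 (MC 16), 3549 (MC 17) and 3045 CPM (MC 20). Thus 11 libraries lay between 1489 and 3947 CPM, and MC 16 alone lay far below. Its value had a 95% Wilson interval of 369 to 396 CPM from 2971 counts, and the half-width of this interval was at most 3.6% of the value in every library, for counting error only. Among the mature miRNAs, miR-451a ranked 32nd (MS 3) to 60th (SS 14) in 11 libraries and 92nd in MC 16.

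The group means of miR-451a were 1868 ± 360 CPM for SS, 2459 ± 174 for CS, 3053 ± 777 for MS and 2326 ± 1702 for MC (SD, n = 3 each). From SS to MC, CS and MS, no neighbours in this order differed by more than the larger of their SDs, and the SD of MC rests on MC 16. CS and MS, which are no neighbours of SS, each differed from it by more than the larger of the 2 SDs. All CS and all MS libraries were above all SS libraries in CPM, and this held for 12.3% and 18.7% of the 780 miRNAs tested (mature and predicted). Scaling by TMM factors, which set the bulk of the miRNAs level between libraries, ended both separations. On that scale CS 8 (1854 CPM) and MS 4 (2245 CPM) fell below SS 12 (2434 CPM). Without the factors, the median of all 780 miRNAs itself was higher by 0.21 (CS against SS) and 0.20 (MS against SS) on the log2 scale than with them. MC 16 remained the lowest library with the factors, at 567 CPM.

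**Figure D1:**
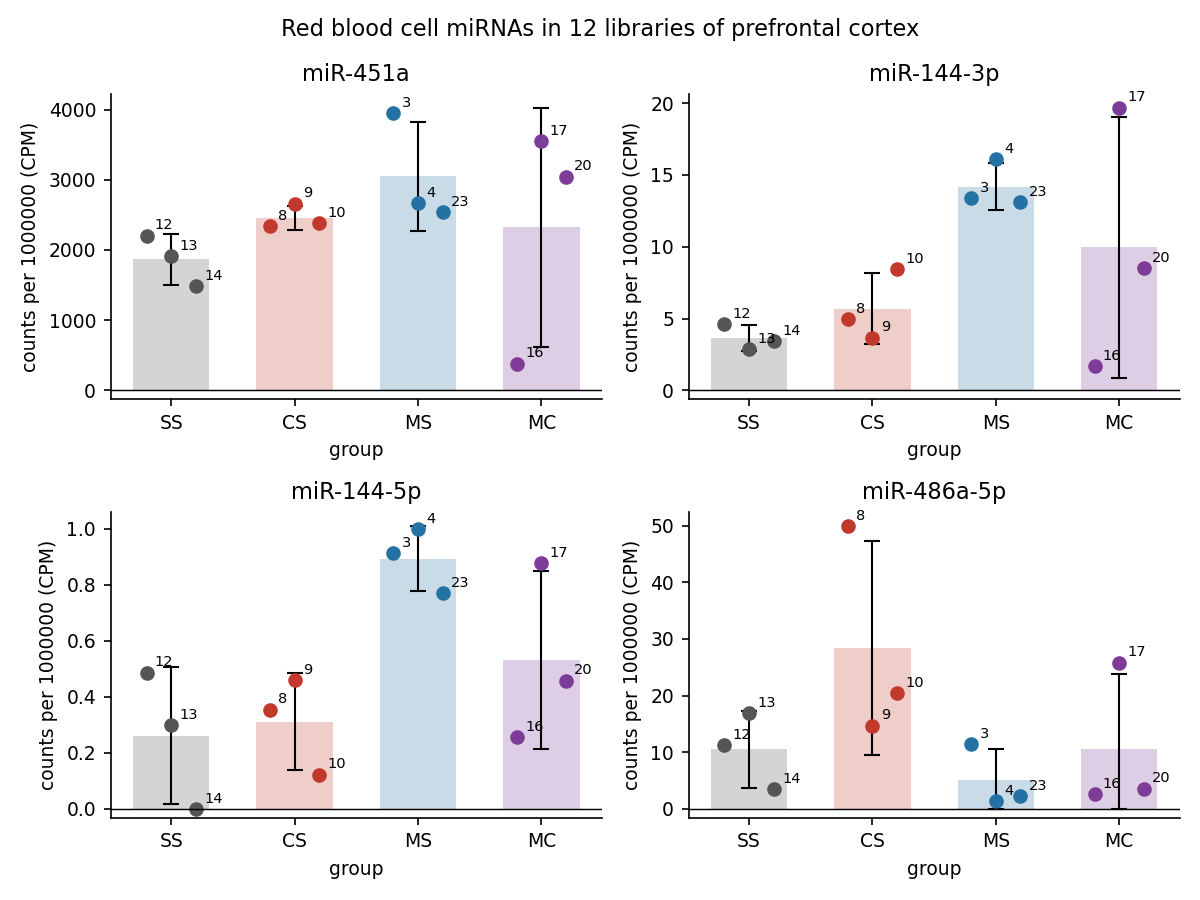
Level of each of the 4 red blood cell miRNAs in CPM (vertical axes, each from 0) in the groups SS, CS, MS and MC (horizontal axes). Points are libraries with their replicate numbers, bars are group means and lines the SD (n = 3), cut at 0; MC 16 lies at 382 CPM in the panel of miR-451a, and the 3 MS libraries lie above the 3 SS libraries for miR-451a and for both arms of miR-144.

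miR-144-3p, the main arm of miR-144, was far rarer in reads than miR-451a. It was at 4.62, 2.89 and 3.43 CPM in SS 12, 13 and 14, and at 4.96, 3.67 and 8.43 CPM in CS 8, 9 and 10. It was at 13.4, 16.1 and 13.1 CPM in MS 3, 4 and 23, and at 1.67, 19.7 and 8.52 CPM in MC 16, 17 and 20. The 3 MS libraries lay close together and above all SS libraries, which held for 18.7% of the 780 miRNAs tested. They also lay above all CS libraries, for which no share over all miRNAs was computed. The MC libraries spanned the whole range. These values rest on 13 counts (MC 16) to 161 counts (MS 4), with Wilson half-widths of 15.5% to 56.3% of the value. The means were 3.65 ± 0.885 CPM for SS, 5.69 ± 2.46 for CS, 14.2 ± 1.65 for MS and 9.96 ± 9.09 for MC (SD, n = 3 each).

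miR-144-5p, the other arm of the same hairpin, was near the limit of detection. It had 4, 3 and 0 counts in SS 12, 13 and 14, 3, 4 and 1 in CS 8, 9 and 10, 10, 10 and 8 in MS 3, 4 and 23, and 2, 7 and 5 in MC 16, 17 and 20. The highest values were those of the MS libraries, at 0.770 to 0.999 CPM, while MC 17 reached 0.878 CPM. In SS 14 a count of 0 allows up to 0.271 CPM. The 5p arm was thus less frequent than the 3p arm in all 12 libraries. In the 11 libraries in which it was counted, the ratio of 3p to 5p counts had a median of 14.7 and ranged from 6.5 (MC 16) to 69 (CS 10, from 1 count).

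The number of miR-451a counts per count of miR-144-3p differed between libraries as well. It was 434 to 662 for SS, 282 to 724 for CS, 166 to 295 for MS and 180 to 357 for MC. All MS libraries lay below all SS libraries in this ratio, and no share over other pairs of miRNAs was computed. CS 10 lay below SS 14, so CS and SS overlapped.

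miR-486a-5p varied most. Its level was 11.3, 16.9 and 3.43 CPM in SS 12, 13 and 14, and 49.9, 14.7 and 20.4 CPM in CS 8, 9 and 10. It was 11.4, 1.40 and 2.31 CPM in MS 3, 4 and 23, and 2.57, 25.8 and 3.57 CPM in MC 16, 17 and 20. Neither treatment separated the libraries, and the highest was 35.7 times the lowest. The means were 10.6 ± 6.78 CPM for SS, 28.3 ± 18.9 for CS, 5.03 ± 5.53 for MS and 10.7 ± 13.2 for MC (SD, n = 3 each).

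This row has a partner. miR-486b-5p is produced from the overlapping mir-486b locus and is known to have the same mature sequence, so a read cannot be given to either with certainty, and how the authors' counting divided such reads is not given in the sources used here. The 2 rows moved against each other. miR-486b-5p was at 11.2, 1.29 and 21.6 CPM in SS 12, 13 and 14, and at 4.13, 9.65 and 3.30 CPM in CS 8, 9 and 10. It reached 19.9, 37.5 and 27.05 CPM in MS 3, 4 and 23, and 77.6, 19.2 and 30.5 CPM in MC 16, 17 and 20. Libraries high in the first row tended to be low in the second. Across the 12 libraries their log2 levels had a Pearson's r of -0.75 (permutation p = 0.00495) and a Spearman's rho of -0.83 (permutation p = 0.00151), and r was -0.70 (permutation p = 0.0197) without the 2 libraries farthest from the median of miR-486a-5p. Rows that divide reads of the same sequence are not independent. These values therefore describe the division of reads and test no relation between 2 miRNAs. The share of miR-486a-5p in the sum of both ranged from 3.21% (MC 16) and 3.60% (MS 4) to 92.9% (SS 13). Within SS alone it was 50.3%, 92.9% and 13.7%.

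The sum of both rows was much steadier. It was 22.5, 18.2 and 25.0 CPM in SS 12, 13 and 14, and 54.1, 24.3 and 23.7 CPM in CS 8, 9 and 10. It was 31.3, 38.9 and 29.4 CPM in MS 3, 4 and 23, and 80.2, 45.0 and 34.1 CPM in MC 16, 17 and 20. The highest value of the sum was 4.40 times the lowest. In the sum all MS libraries lay above all SS libraries, in CPM and also with TMM factors. This held for 18.7% and 12.8% of the 780 miRNAs tested. CS and SS overlapped in the sum. In MC 16, the library with the least miR-451a, the sum was the highest of all. One miR-486-5p count accordingly stood against 4.77 counts of miR-451a in MC 16 and against 43.3 to 126 in the other 11 libraries. The 3p arms, which have rows of their own, varied less than either 5p row. miR-486a-3p ranged from 2.74 CPM (MS 3) to 19.2 CPM (MC 16), and miR-486b-3p from 9.56 CPM (SS 13) to 30.5 CPM (MC 16).

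**Figure D2:**
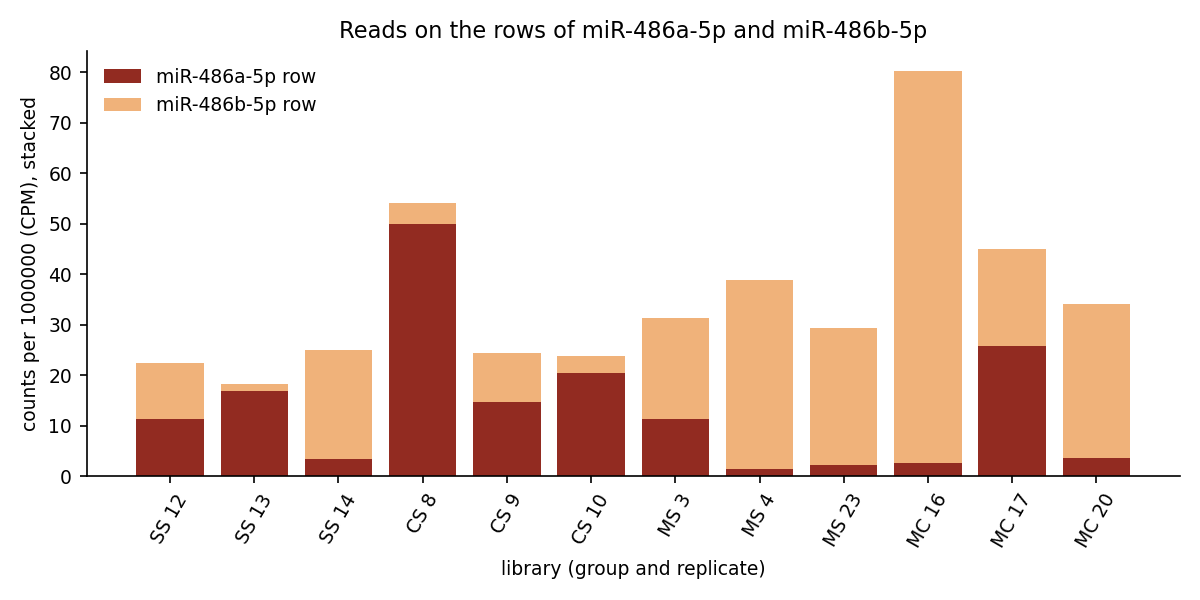
Level in CPM (vertical axis, stacked) of the rows of miR-486a-5p (dark) and miR-486b-5p (light) in each of the 12 libraries (horizontal axis). The division between the rows ranges from 92.9% miR-486a-5p in SS 13 to 3.21% in MC 16, while the height of the whole bar stays between 18.2 and 80.2 CPM.

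The comparison of CS with SS asks what cocaine changed, that of MS with SS what MET changed, and that of MC with CS what MET changed under cocaine. No miRNA was called in any of them by edgeR's quasi-likelihood test (a call needed a log2 fold change of 1 or more in either direction with an adjusted p no higher than 0.05), so percent called was 0 of 780 miRNAs throughout. At an unadjusted p under 0.05 there were 22 miRNAs in CS against SS (2.82%), 75 in MS against SS (9.62%) and 58 in MC against CS (7.44%). CS against SS and MS against SS share the SS libraries, and MC against CS shares the CS libraries with the first.

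In CS against SS none of the 4 members had an unadjusted p under 0.05. The log2 fold change was 0.14 ± 0.48 for miR-451a, 0.43 ± 0.57 for miR-144-3p, 0.04 ± 0.80 for miR-144-5p and 1.05 ± 0.94 for miR-486a-5p (SE), with adjusted p of 0.994 or above in the edgeR test. For miR-451a, 2 SE on either side run from -0.82 to 1.11, so that a change of about this size in either direction could not be seen with 3 libraries per group. The members' median was 0.29 and that of all miRNAs 0.035. Set A offers CS 8 and CS 9 against SS 12 alone, with log2 ratios of the mean CPM of 0.18 for miR-451a and -0.10 for miR-144-3p. The value of miR-486a-5p ran from 0.56 without CS 8 and 0.58 without SS 14 to 1.60 without SS 13. Without SS 14 the fitted value of miR-451a was -0.079, and without CS 10 that of miR-144-3p was -0.15.

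In MS against SS miR-144-3p had the lowest p of the members. Its log2 fold change was 1.72 ± 0.58 (SE), with an unadjusted p of 0.0125 and an adjusted p of 0.336 in the edgeR test, and it did not pass the threshold. It was higher in 3 of 3 MS libraries than in every SS library, in CPM and also with TMM factors, where this held for 12.8% of the miRNAs tested. miR-144-5p gave 1.53 ± 0.77 (edgeR adjusted p = 0.551), with the MS libraries again above all SS libraries on both scales. No SS or CS library reached the 5 counts of the filter, so miR-144-5p entered the test only through MS and MC. Its separation is therefore no independent support. miR-451a gave 0.46 ± 0.48 (edgeR adjusted p = 0.805), with 2 SE on either side at -0.50 and 1.43. For miR-486a-5p the value was -1.31 ± 0.96 (edgeR adjusted p = 0.722), for miR-486b-5p 1.11 ± 0.86 (edgeR adjusted p = 0.747), and for both rows summed 0.35 ± 0.46 (edgeR adjusted p = 0.879). The sign of the first thus turned once the rows were summed. With 1 library left out, the value of miR-486a-5p ran from -2.79 without MS 3 (an unadjusted p of 0.0219 and an adjusted p of 0.4997 in the edgeR test) to -0.74 without SS 13, and it was -0.85 without MS 4. That of miR-144-5p ran from 0.86 without SS 14 to 2.26 without SS 12, and with library set as a covariate it was 2.31, with an unadjusted p of 0.0214 and an adjusted p of 0.552 in the edgeR test. The members' median was 1.00 and that of all miRNAs -0.032.

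The 3 MS libraries and SS 13 and SS 14 belong to set B. In CPM every MS library lay above every SS library for miR-451a, miR-144-3p and miR-144-5p. That order had to recur inside set B, so it is no further test of the separation, and only the size of the difference is given. Inside set B the mean level of miR-144-3p was 14.2 CPM in MS and 3.16 CPM in SS, a log2 ratio of 2.17. For miR-451a the means were 3053 and 1700 CPM, a log2 ratio of 0.84, and for miR-144-5p 0.894 and 0.149 CPM, a log2 ratio of 2.58. Over all alternatives tried, the log2 fold change of miR-144-3p lay between 1.56 and 1.96 and its adjusted p between 0.0543 (a fit of the 6 libraries alone) and 0.749 (without SS 13).

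In MC against CS the members' own values pointed both ways. The log2 fold change was -0.17 ± 0.48 for miR-451a, 0.71 ± 0.57 for miR-144-3p, 0.80 ± 0.80 for miR-144-5p and -1.38 ± 0.95 for miR-486a-5p (SE), with edgeR adjusted p between 0.616 and 0.910. Within set C, MC 16 and MC 17 against CS 10 alone gave log2 ratios of the mean CPM of -0.27 for miR-451a and 0.34 for miR-144-3p. For both miRNAs MC 16 lay below CS 10 and MC 17 above it, so these ratios average opposite differences. Without MC 16 the fitted value of miR-451a turned to 0.30 (edgeR adjusted p = 0.771), and without MC 17 that of miR-144-3p turned to -0.13. The value of miR-486a-5p ran from -2.88 without MC 17 (an unadjusted p of 0.0171 and an adjusted p of 0.357 in the edgeR test) to -0.89 without CS 8. miR-144-5p was at 1.93 with library set as a covariate (an unadjusted p of 0.0919 and an adjusted p of 0.955 in the edgeR test), and ran from 0.41 without MC 17 to 1.22 without CS 9 with 1 library left out. miR-486b-5p gave 3.29 ± 0.93 with an unadjusted p of 0.00456 and an adjusted p of 0.577 in the edgeR test, and both rows summed gave 1.02 ± 0.47 (edgeR adjusted p = 0.574). The members' median was 0.27, beside 0.079 for all miRNAs.

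**Figure D3:**
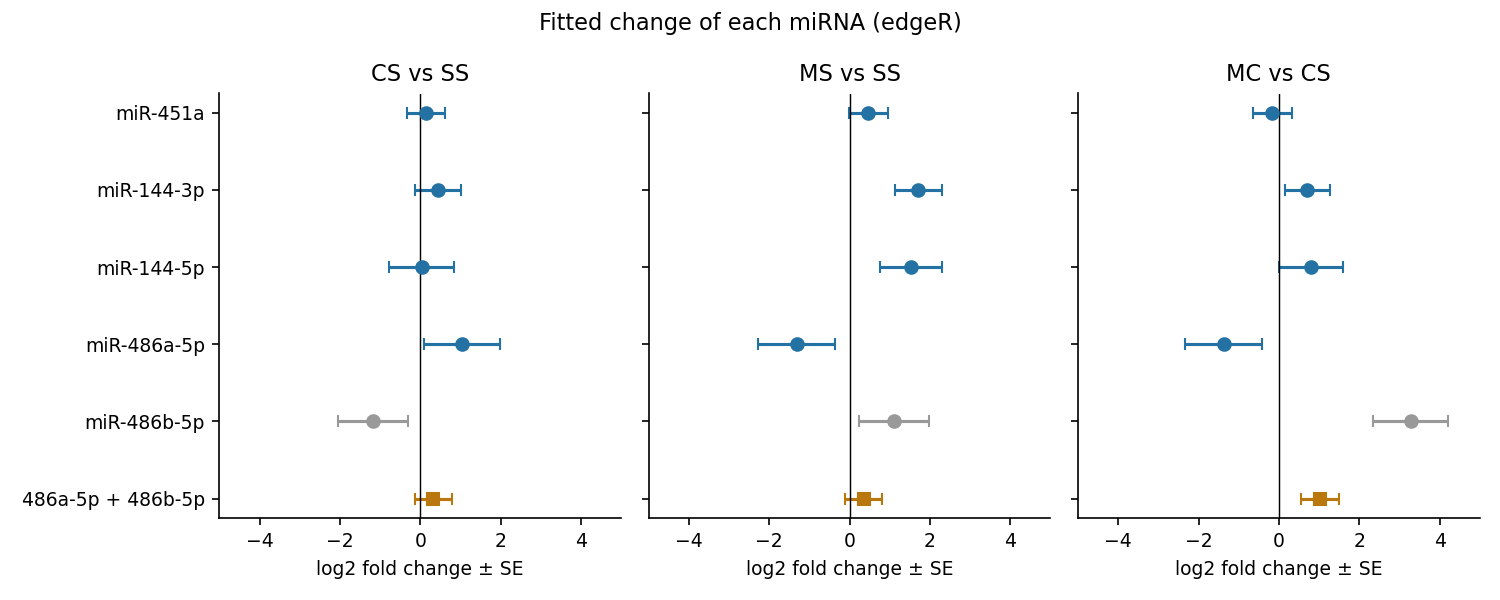
Log2 fold change with its SE (horizontal axes) from edgeR for the 4 members (blue), for miR-486b-5p (grey) and for the summed rows of miR-486a-5p and miR-486b-5p (square) in CS against SS, MS against SS and MC against CS. In MS against SS miR-144-3p lies at 1.72 and miR-144-5p at 1.53, and the values of miR-486a-5p and miR-486b-5p lie on opposite sides of 0 in all 3 panels.

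The interaction asks whether cocaine acted differently with and without MET. It was -0.63 ± 0.68 for miR-451a, -1.01 ± 0.80 for miR-144-3p, -0.73 ± 1.13 for miR-144-5p and -0.06 ± 1.36 for miR-486a-5p on the log2 scale (SE), with edgeR adjusted p of 0.810 or above. None of 780 miRNAs passed, and 34 (4.36%) had an unadjusted p under 0.05. In the test of any difference among the 4 groups 0 passed and 59 (7.56%) had an unadjusted p under 0.05, among them miR-144-3p. It had an unadjusted p of 0.0479 and an adjusted p of 0.593 in the edgeR test.

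Library MC 16 was low in much more than red blood cell miRNAs. Against the median of the other 11 libraries its log2 level was lower by 2.73 for miR-451a, 2.04 for miR-144-3p, 0.34 for miR-144-5p and 1.95 for miR-486a-5p. Among the 746 mature miRNAs, miR-451a had the 6th lowest value of this difference and miR-144-3p the 56th. The difference moved with base composition. For 636 of these miRNAs a RefSeq sequence was at hand, and Spearman's rho between GC share and the difference was 0.59 in MC 16 and -0.28 to 0.14 in the other 11 libraries (across miRNAs, which are not independent replicates). Its median was -1.37 for the 102 miRNAs of up to 40% GC, the range that holds miR-451a and both arms of miR-144, and 0.43 for the 198 above 55% GC. The alternative fits include 1 with each library's GC trend removed. Apart from those with 1 library left out, they gave miR-451a log2 fold changes of -0.18 to -0.08 in MC against CS. These fits compare groups, and the part of base composition in the low miR-451a of MC 16 was not tested.

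**Figure D4:**
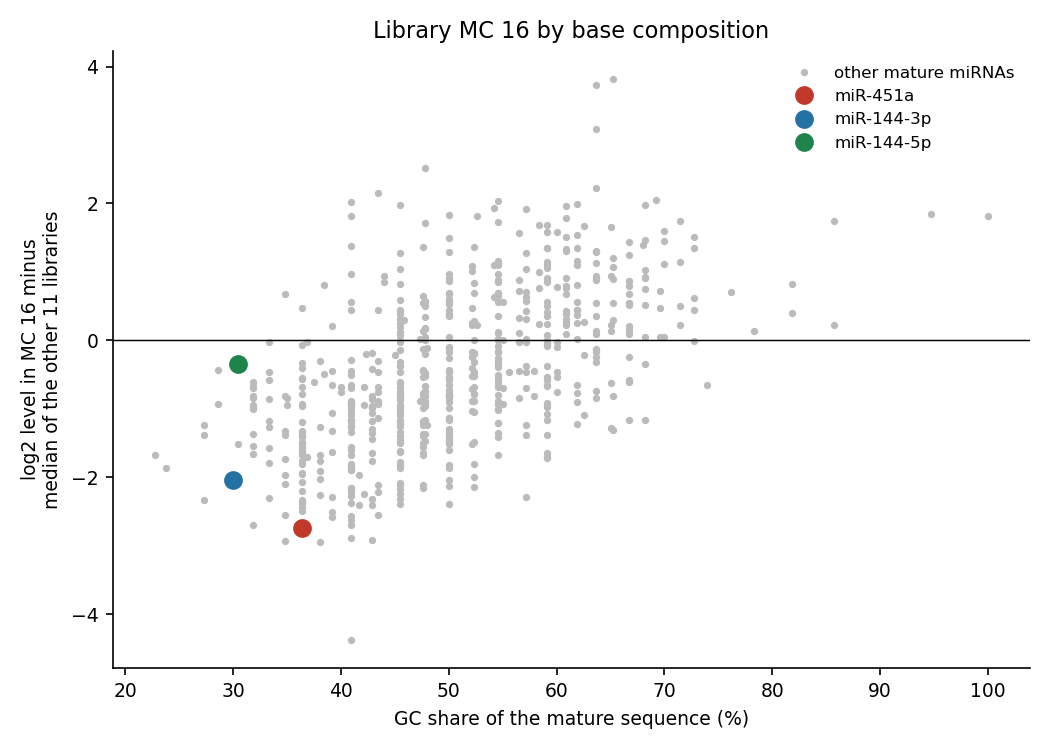
Log2 level of 636 mature miRNAs in MC 16 minus the median of the other 11 libraries (vertical axis) against the GC share of the mature sequence in percent (horizontal axis). miR-451a lies at -2.73, miR-144-3p at -2.04 and miR-144-5p at -0.34, in the range of up to 40% GC, whose median is -1.37.

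Reads were also counted on miRNA precursor families, apart from the mature miRNAs. The mir-451 family held 180 CPM in MC 16 and 521 to 1659 CPM in the other libraries. Its share of all counts on miR-451a and the family lay between 23.5% (MS 23) and 32.0% (MC 16), so that both rows rose and fell together. The mir-144 family had 0 to 4 counts and the mir-486 family 3 to 39 counts per library. miR-451b, which RefSeq places on the minus strand opposite mir-451a, was not analysed here.

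Across the 12 libraries, all 6 pairs of members were correlated on the log2(CPM + 0.5) scale, and p-values were adjusted over these pairs. miR-451a and miR-144-3p, which share a transcript, rose and fell together, with a Pearson's r of 0.75 (permutation p = 0.00029, adjusted 0.00174) and a Spearman's rho of 0.87 (permutation p = 0.0005, adjusted 0.003). Such an r is not particular to this pair. Some miRNAs outside the members had a higher r with miR-451a, such as miR-33-5p (0.96) and miR-143-3p (0.94). The share of all miRNAs with an r this high was not computed. Without MC 16 and SS 14, the libraries farthest from the median of miR-451a, r was 0.72 (permutation p = 0.0189, adjusted 0.077), so the adjusted p no longer passed. With group means subtracted, r was 0.85 (permutation p = 0.00331). This value rests largely on MC. There the highest library was 9.28 times the lowest for miR-451a and 11.8 times for miR-144-3p. In the other groups these were at most 1.55 and 2.30 times, and r with group means subtracted was not computed without MC. Within the 6 libraries of set B, r was 0.79 (exact permutation p = 0.0681), and sets A and C hold 3 libraries each, too few for a value.

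The arms of miR-144 gave an r of 0.72 (permutation p = 0.00908, adjusted 0.0272) and a rho of 0.77 (permutation p = 0.00525, adjusted 0.0121). Here r was 0.45 with group means subtracted (permutation p = 0.144), 0.70 (permutation p = 0.0257, adjusted 0.077) without MC 16 and MC 17, and 0.90 in set B (exact permutation p = 0.00972, adjusted 0.0583). For miR-451a and miR-144-5p r was 0.52 (permutation p = 0.0774, adjusted 0.155) and rho 0.76 (permutation p = 0.00605, adjusted 0.0121). It was 0.64 (permutation p = 0.0446, adjusted 0.0892) without SS 14 and MC 16, and 0.83 within set B (exact permutation p = 0.0417, adjusted 0.125). No relation of miR-486a-5p with the other members passed over the 12 libraries. Its r was 0.34 with miR-451a, -0.04 with miR-144-3p and -0.11 with miR-144-5p, with permutation p of 0.311, 0.904 and 0.742 and adjusted p of 0.466 or above. The corresponding rho were 0.12, 0.0070 and -0.19, with adjusted permutation p of 0.836 or above. With group means subtracted, r was higher, at 0.54 with miR-451a (permutation p = 0.0600, adjusted 0.0900), 0.48 with miR-144-3p (permutation p = 0.116, adjusted 0.139) and 0.60 with miR-144-5p (permutation p = 0.0417, adjusted 0.0835). With the miR-486b-5p counts added, r with miR-451a turned to -0.46 (permutation p = 0.131). That value includes MC 16, which had the lowest miR-451a (382 CPM) and the highest summed level (80.2 CPM). For the sum, r without MC 16 was not computed.

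**Figure D5:**
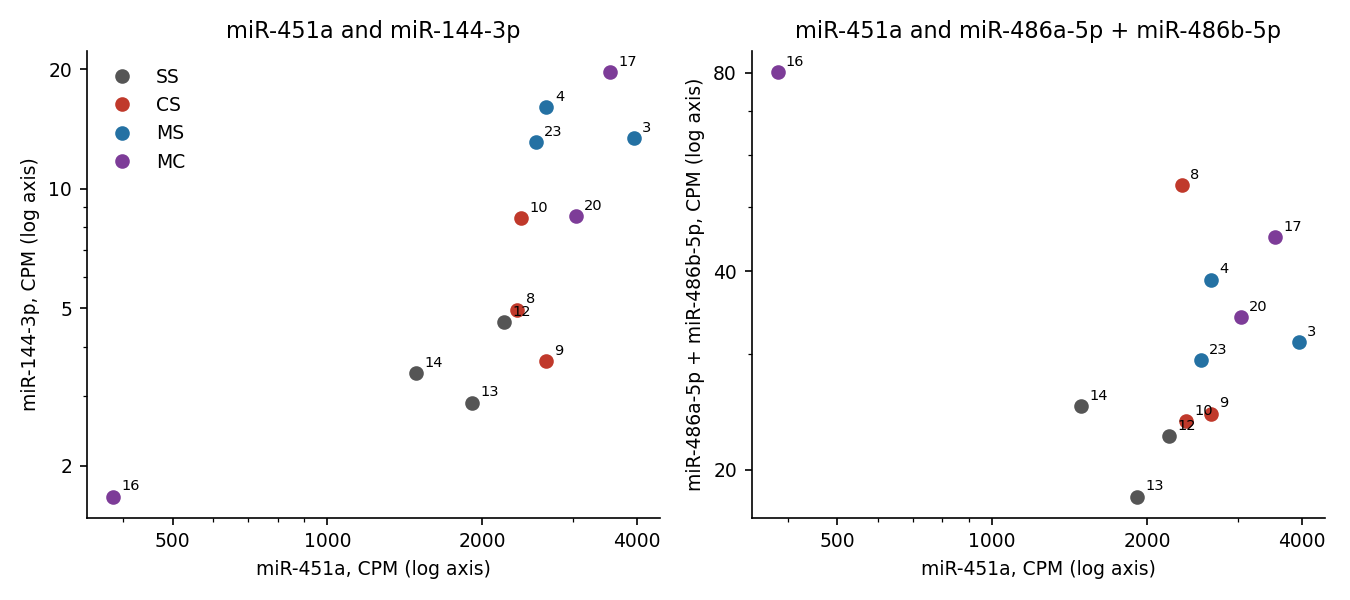
Level of miR-144-3p (left) and of the summed rows of miR-486a-5p and miR-486b-5p (right) against the level of miR-451a, in CPM on log axes, for 12 libraries coloured by group and marked with their replicate numbers. On the left the points rise together (r = 0.75), and on the right MC 16 lies alone at 382 CPM of miR-451a and 80.2 CPM of miR-486-5p.

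Other blood and vessel miRNAs were set beside the members. Of 12 miRNAs that are abundant in red blood cells but also made in many other cells, 0 were called, and their median log2 fold changes were 0.095 in CS against SS, 0.051 in MS against SS and -0.11 in MC against CS. miR-16-5p, the most studied of them in blood, was at 4478 to 4634 CPM in SS and 4487 to 6213 CPM in MS, with a log2 fold change of -0.04 ± 0.34 (edgeR adjusted p = 0.991). miR-106b-5p, of the miR-17 family, was at 8.27 to 10.1 CPM in SS and 16.6 to 33.7 CPM in MS, with 1.18 ± 0.33 (edgeR adjusted p = 0.315). In MS against SS 6 of the 12 were above 0 and 6 below, and the other one with an unadjusted p under 0.05 was miR-484, among those below 0. It was at 415 to 539 CPM in SS and 295 to 430 CPM in MS, which overlap, with -0.74 ± 0.22 (edgeR adjusted p = 0.315 as well). Their summed level was 19430 to 22176 CPM for SS, 15740 to 26538 for CS, 20306 to 28116 for MS and 12815 to 26019 for MC, and MC 16 was again the lowest.

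Of 7 leukocyte and platelet miRNAs, 6 were tested and 0 were called. Their summed level was 1401 to 2349 CPM for SS, 1043 to 2082 for CS, 1996 to 2456 for MS and 1572 to 2747 for MC. miR-223-3p, which marks neutrophils, other myeloid cells and platelets, was at 4.50 to 5.06 CPM in SS and 5.20 to 16.4 CPM in MS. In MC 20 it reached 166 CPM, against 1.29 and 4.14 CPM in MC 16 and MC 17. miR-142a-3p, a miRNA of blood-forming cells, was at 4.48 to 11.6 CPM in SS and 13.5 to 21.2 CPM in MS (log2 fold change 1.01 ± 0.54, edgeR adjusted p = 0.598). Its partner arm miR-142a-5p was at 2.89 to 3.16 CPM in SS and 5.93 to 7.22 CPM in MS (0.87 ± 0.48, edgeR adjusted p = 0.605). Below 0 were miR-146a-5p and miR-155-5p, miRNAs of activated immune cells. miR-146a-5p was at 400 to 784 CPM in SS and 434 to 564 CPM in MS (-0.54 ± 0.25, edgeR adjusted p = 0.515), and miR-155-5p at 3.29 to 29.9 CPM in SS and 3.80 to 5.74 CPM in MS (-1.56 ± 0.81, edgeR adjusted p = 0.566). Of the 6 miRNAs tested, 4 were thus above 0 and 2 below, with a median of 0.42 beside -0.032 for all miRNAs. For the list, the MS libraries lay above all SS libraries in CPM in 3 of 6 miRNAs (miR-142a-3p, miR-142a-5p and miR-223-3p), beside 18.7% of all miRNAs tested. With TMM factors (0.826 in SS 13 and 1.19 in MS 4), MS 4 fell below SS 13 for miR-223-3p, and both arms of miR-142a stayed apart.

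The 6 miRNAs of the vessel wall and liver gave 0 calls as well. Their summed level was 9757 to 11041 CPM for SS, 10314 to 12483 for CS, 10923 to 16052 for MS and 3930 to 12167 for MC. The endothelial miR-126a-3p was at 6206 to 7042 CPM in SS, 7026 to 9087 in MS and 2776 in MC 16. miR-126a-5p was at 252 to 373 CPM in SS and 564 to 790 CPM in MS, with a log2 fold change of 0.81 ± 0.29 (edgeR adjusted p = 0.397). miR-122-5p, the main miRNA of the liver and common in plasma, was at 11.2 to 58.8 CPM in SS and 69.4 to 2494 CPM in MS (4.24 ± 1.39, edgeR adjusted p = 0.336). It was at 2494 CPM in MS 3, the library with the most miR-451a, and at 9.04 to 173 CPM in the other 11. In MS against SS 5 of the 6 were above 0 and 1 below (miR-143-3p, -0.03 ± 0.35), with a median of 0.47 beside -0.032 for all miRNAs. The MS libraries lay above all SS libraries in CPM in 4 of 6 (miR-122-5p, miR-126a-5p, miR-145a-3p and miR-145a-5p), beside 18.7% of all miRNAs tested. With TMM factors (0.826 in SS 13 and 0.988 in MS 23), MS 23 fell below SS 13 for miR-122-5p and miR-145a-3p. Those separations thus ended on that scale, while miR-126a-5p and miR-145a-5p stayed apart. Of the muscle miRNAs, which bear on the second source of miR-486, miR-1a-3p was at 0.257 to 3.80 CPM, miR-206-3p at 0.547 to 3.22 CPM and miR-133a-3p at 24.8 to 82.3 CPM. The part of blood cells, vessels or other tissue in the members' levels was not tested.

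The miRNAs most like miR-451a over the 12 libraries, by Pearson's r of log2(CPM + 0.5) among the 742 other mature miRNAs tested, were miR-33-5p (0.96), miR-19b-3p (0.95), miR-30d-3p (0.95), miR-143-3p (0.94) and miR-15a-5p (0.94). All 5 were lowest in MC 16, and without that library their r fell to between 0.65 and 0.78. miR-486a-5p was followed most closely by miR-384-5p (0.88), miR-219a-2-3p (0.72), miR-5101 (0.68), miR-666-5p (0.66) and miR-378c (0.65). miR-384-5p ranged from 149 to 1849 CPM, and its r was 0.90 without MC 16. The libraries share depth and set, and these values describe 12 points each.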

How the data were processed

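Small RNA from the PFC was sequenced in 12 libraries (reads of 50 bp), and groups and replicate numbers were taken from the sample labels. By the study's methods, the authors removed short, low-quality and adapter reads and mapped the rest with AASRA. Their processing notes name Bowtie and mm10. The deposited counts are whole reads per small RNA, not normalized. TPM values, which the authors placed beside them, equal the count over the library total times 1000000, within 0.005. They carry nothing beyond the counts, so CPM was computed from the counts.

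Members were tested in a fit of all miRNAs with 5 or more counts in 3 or more libraries (780 of 1422, of which 1374 are mature and 48 predicted), using edgeR 4.0.16 in R 4.3.3 (TMM factors from the miRNAs, the sum of all counts as library size, a design with 4 group means and 8 residual degrees of freedom) and Benjamini-Hochberg adjustment. Permutation tests were two-sided, with 100000 resamples, and exact for 6 libraries. Intervals are 95% Wilson intervals and cover counting error only, since reads carry no molecular identifiers. Library sets come from average-linkage clustering of the precursor families. No pair of libraries was alike within sampling noise (385 miRNAs, smallest chi-square per degree of freedom 211 of 66 pairs).

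Members and lists were chosen by name with earlier results of these data known. The miRNAs named outside them are those in the lists for the same loci, red blood cells, leukocytes and platelets, vessel wall and liver, neural tissue and muscle, and the 5 most like miR-451a and miR-486a-5p. RefSeq (GRCm38.p6) gave sequences and loci. The alternatives were DESeq2 1.42.0, other scaling and filters, library set as a covariate, the 6 libraries of a comparison alone, summed copies and each library left out. Added after seeing the data were removal of each library's GC trend, miR-451a counts summed with the mir-451 family, and summed copies in the correlations. The steps were tested on simulated data. Other steps ran in Python 3.11.15 (scipy 1.17.1, numpy 2.4.6, pandas 2.3.3), and plots were drawn with matplotlib 3.10.9.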

Additional observations from a re-analysis of the deposited data

How the results depend on the processing

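No paired analysis was possible because the groups share no replicate number. None of the 4 members passed the threshold in any comparison under any alternative. The count of miRNAs called in MS against SS, 0 in the edgeR fit of all libraries, was 3 in a fit of the 6 libraries alone, 7 with DESeq2, and 0 to 5 with 1 library left out (5 without MC 16). The count for any difference among the 4 groups was 13 with DESeq2 and 0 to 3 with 1 library left out (3 without MC 16).

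Several log2 fold changes turned in sign. In CS against SS, miR-144-5p was at -0.65 with library set as a covariate. With the rows of miR-486a-5p and miR-486b-5p summed, the value was 0.35 in MS against SS, 1.02 in MC against CS and 0.67 in the interaction. With 1 library left out, CS against SS ran from -0.079 to 0.28 for miR-451a, from -0.15 to 0.64 for miR-144-3p and from -0.65 to 0.75 for miR-144-5p. The lowest of these were without SS 14, CS 10 and SS 14, and miR-144-5p was also below 0 without CS 9 (-0.41). MC against CS ran from -0.55 to 0.30 for miR-451a and from -0.13 to 1.26 for miR-144-3p. The interaction of miR-486a-5p ran from -1.57 to 1.41, and its sign turned without SS 14, CS 8, MS 3, MC 16 or MC 20. The cause was not tested.

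Among the correlations, miR-451a with miR-144-3p was 0.72 without the 2 farthest libraries and 0.79 in set B, and its adjusted permutation p then no longer passed. It passed without each library in turn (0.72 to 0.80). The arms of miR-144 gave 0.64 with TMM factors, 0.45 with group means subtracted, 0.70 without the 2 farthest libraries, 0.90 in set B (6 libraries) and 0.67 to 0.83 with 1 library left out, where the call was lost without MS 3, MS 4, MS 23 or MC 17. miR-451a with miR-144-5p passed by Spearman's rho (0.76) and without MC 16 (0.79, range 0.46 to 0.79). With miR-486a-5p, r was -0.11 for miR-451a without the 2 farthest libraries. With the copies summed and MC 16 included, r was -0.46 for miR-451a and 0.18 for miR-144-5p. It was 0.48 for miR-144-3p and 0.60 for miR-144-5p with group means subtracted, rho was 0.0070 for miR-144-3p, and leaving out 1 library gave -0.26 to 0.17 for miR-144-3p and -0.33 to 0.12 for miR-144-5p. Per 1000000 miRNA counts in place of all counts, the mean of miR-451a was 3864, beside 2426 CPM.

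miR-144-5p had no value at a minimum of 10 counts, nor in the fits of the 6 libraries alone in CS against SS and MC against CS, since it then failed the filter. DESeq2 gave no adjusted p for miR-144-5p in the test of any difference. Depth limits miR-144-5p, with at most 10 counts in a library, and pools of a pair of animals limit every test.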
